A study of Homo sapiens with 6 samples.

Results

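The integrated stress response was examined through 10 of its transcription factors and effectors in HK-2 cells exposed to oxidized low-density lipoprotein (OX-LDL). The genes were chosen by name as known parts of the pathway, with earlier results of these data known, and were ATF4, DDIT3, CEBPB, ATF3, ATF5, NUPR1, TRIB3, PPP1R15A, SESN2 and CHAC1. They are 10 of the 58825 genes in the deposited table. Of the 10, 9 were lower in OX-LDL-treated cells than in Control cells, from 1.5-fold for ATF4 to 20.8-fold for NUPR1, and only ATF5 was higher.

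RNA-seq of poly(A) RNA was performed on 3 libraries of untreated cells (Control) and 3 libraries of cells exposed over 48 h to OX-LDL at 25 μg/ml (OX-LDL). HK-2 cells are an immortalized human line derived from proximal tubule epithelium, and all 6 libraries come from this single line. The study starved the cells of serum before it added OX-LDL, and the labels give no time for the Control cultures. The labels do not say whether the 3 libraries of a group came from separate cultures, so p-values measure only the spread between these libraries, which may be technical.

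When protein synthesis or amino acid supply fails, the eIF2 kinases phosphorylate the translation initiation factor eIF2. General translation then drops, while the mRNA of ATF4, which has short upstream reading frames, is translated more. ATF4 and its partners of the C/EBP and CREB families switch on genes for amino acid supply, tRNA charging and redox balance, and under lasting stress DDIT3 (also known as CHOP) turns the response towards cell death. In renal tubular cells the pathway is known for its part in the reaction to ischaemia, toxins and protein overload. The measurements below are of mRNA, and neither the ATF4 protein nor the phosphorylation of eIF2 was analysed here.

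Letters of binding motifs that these factors are known for were searched, on both strands, in RefSeq promoter windows of GRCh38.p14 that run from 250 bases before to 50 bases after an annotated start. The C/EBP-ATF response element, TGATGNAA, is read by ATF4 bound to a C/EBP partner, and the cAMP response element, TGACGTCA, is read by the ATF and CREB families. Windows were matched for 9 of the 10 genes (all but NUPR1), 17 windows in total. The 3 sites found in them are shown with 1 in JDP2, a relative of ATF3, because they place the motifs within the gene set; each line runs 5′ to 3′ on the plus strand and the capitals mark the motif or its complement.
ATF3, chr1:212565205-212565234: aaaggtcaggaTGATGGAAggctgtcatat
CHAC1, chr15:40953251-40953280: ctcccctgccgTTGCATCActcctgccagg
PPP1R15A, chr19:48872352-48872381: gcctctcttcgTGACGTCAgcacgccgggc
JDP2, chr14:75427995-75428024: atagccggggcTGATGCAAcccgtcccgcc

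TGATGNAA was in the windows of ATF3 (191 to 184 bases before its RefSeq start) and CHAC1 (209 to 202 bases before, as the complement), that is in 2 of 9 genes, against 4.46% of all 27305 symbols with a window. Of the 17 windows of the 9 genes, 2 held it, against 3.62% of all 35116 windows. In the deposited table CHAC1 begins at position 40952962, so its site lies within the gene as deposited. TGACGTCA was in the window of PPP1R15A alone among the 9 (58 to 51 bases before the start), against 2.25% of all symbols. By window this was 1 of 17, against 1.85%. A match of letters is a description of the window only, and ATF4, DDIT3, CEBPB, ATF5, TRIB3 and SESN2 held neither motif in these windows.

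The deposited counts are estimates for whole genes, and the FPKM values (fragments per kilobase, corrected for library size) are used here for levels. Total counts were 69334049 to 75701068 in Control and 62561347 to 76797607 in OX-LDL. Counts of 4, 8 and 12 occurred 2.75, 2.56 and 2.03 times as often as the values next to them, so a read pair was taken as about 4 counts and 12 counts (3 read pairs) as the detection limit, which covers counting error only. Genes whose mean reached 0.1 FPKM were tested with edgeR's quasi-likelihood test, with Benjamini-Hochberg adjustment over all 19510 genes tested, and a gene was called at an adjusted p under 0.05. All log2 fold changes are OX-LDL over Control. For 1 gene, the smallest two-sided p that an exact permutation test of 3 libraries against 3 allows is 0.1, so every p-value comes from a model over all genes.

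The label of a proximal tubular cell was checked against marker genes. Of 13 proximal tubule markers, 4 reached the minimum level for testing (PAX8, GGT1, MME and SLC5A2), and the uptake receptor LRP2 and the transporter SLC22A6 were at 0 counts in every library. Of the 4, PAX8, a renal transcription factor, was lower, at 46.6 ± 12.9 FPKM in Control and 19.4 ± 4.17 in OX-LDL (SD, n = 3 per group; log2 fold change -1.23, SE 0.24, adjusted p = 0.0182). The other 3 were not called: GGT1 had a log2 fold change of 1.02 (adjusted p = 0.336), MME of -0.19 (adjusted p = 0.377) and SLC5A2 of -1.85 (adjusted p = 0.0826). GGT1 was at 3.13, 18.2 and 3.88 FPKM in Control and 15.8, 17.7 and 16.1 FPKM in OX-LDL. Control replicate 2 was thus above every OX-LDL library. Of 6 epithelial markers, 2 were higher, none was lower and 4 were not called, with a median log2 fold change of 0.58. The keratin KRT19 rose from 5.47 ± 0.481 to 20.6 ± 4.83 FPKM (log2 fold change 1.94, adjusted p = 0.0021) and KRT8 from 37.5 ± 6.50 to 65.4 ± 4.96 FPKM (log2 fold change 0.83, adjusted p = 0.0116). KRT7 and KRT18 had log2 fold changes of 0.58 (adjusted p = 0.0539) and 0.59 (adjusted p = 0.123), with no overlap between the groups. The gaps were narrow, 1.06-fold for KRT7 and 1.02-fold for KRT18, and 16.8% of all genes tested were separated in that direction. KRT18 was at 46.8, 35.1 and 36.1 FPKM in Control and 78.8, 47.9 and 48.1 FPKM in OX-LDL. EPCAM, an epithelial adhesion protein, was at 51.2 ± 3.68 FPKM in Control and 53.1 ± 3.13 in OX-LDL, whereas CDH1 was at 0.0968 ± 0.0611 and 0.106 ± 0.0400. Of the 19 markers of other kidney cell types, 13 had at most 12 counts in every library. Only 3 of the 19 reached the minimum level for testing, and none of these was called. The summed level of the 19 was 1.12 to 1.33 FPKM in Control and 1.23 to 1.62 in OX-LDL. The part of these marker differences in the values of the 10 genes was not tested. In bulk RNA, fewer cells with an active response and less of its RNA per cell cannot be told apart.

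Of the 10 genes, all passed the minimum level in each group and all were called by edgeR's quasi-likelihood test, 9 lower and 1 higher. Over all genes tested, 15.3% were called, 7.42% lower and 7.91% higher. The 3 libraries of each group did not overlap in any of the 10 genes, 9 with OX-LDL lower and 1 with OX-LDL higher, where 20.5% and 16.8% of all genes tested were so separated. At least 2-fold lower and called were 8 of the 10, all but ATF4 and ATF5, against 2.03% of all genes. By mean FPKM the 10 genes stood at percentiles 52.6 (ATF3) to 99.0 (ATF4) of the genes tested. The shares over all genes were not matched for level. The median log2 fold change of the 10 genes was -1.88, and over all genes tested it was -0.00, with 5% of genes below -1.14 and 5% above 1.15.

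**Figure D1:**
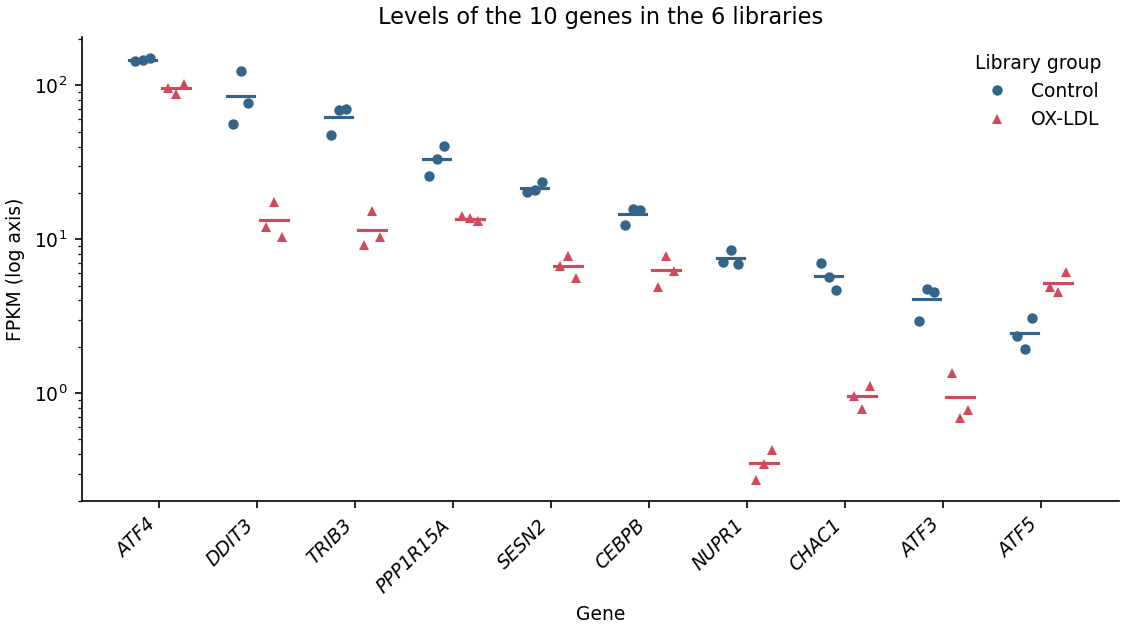
Level of each of the 10 genes in FPKM (vertical log axis), with 1 point per library, circles for Control and triangles for OX-LDL, and a bar at the mean of each group. The OX-LDL triangles lie below the Control circles in 9 genes, by the widest gap in NUPR1, and above them in ATF5.

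ATF4 (ENSG00000128272, chromosome 22, 39519695 to 39522683, GRCh38) encodes the central transcription factor of the response. It was at 144, 146 and 151 FPKM in the Control libraries and at 96.5, 88.3 and 103 FPKM in the OX-LDL libraries. The Control libraries were close to each other, and every OX-LDL library was lower than every Control library. Its log2 fold change was -0.59 (SE 0.07), with edgeR's quasi-likelihood test giving an adjusted p of 0.0053. This was the smallest fold among the 10 genes, and ATF4 stayed the most abundant of them in each library. Of the 4 ATF4 pseudogenes in the table, none exceeded 63 counts in a library, where ATF4 itself had 17899 to 32763.

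Among the factors that act with or after ATF4, DDIT3 (ENSG00000175197, chromosome 12, 57516588 to 57521737) encodes CHOP, a C/EBP-family protein linked to stress-induced cell death. It was at 55.9, 123 and 76.6 FPKM in Control and at 11.9, 17.6 and 10.4 FPKM in OX-LDL. Control replicate 2 was the highest by far and the Control values differed up to 2.20-fold, yet the lowest Control library was 3.18-fold above the highest OX-LDL library. The log2 fold change was -2.64 (SE 0.33, adjusted p = 0.0051).

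DDIT3 overlaps 2 genes on the other strand, and the sources used here do not state whether counting used the strand, so its value is uncertain. MARS, a methionyl-tRNA synthetase gene that overlaps it by 982 bases, went from 38.1 ± 2.06 to 14.8 ± 0.824 FPKM (log2 fold change -1.33, adjusted p = 0.00038). MBD6, which overlaps it by 1028 bases, had a log2 fold change of -1.30 (adjusted p = 0.0018). On its own strand DDIT3 also overlaps MIR616 by 97 bases, which had 18 to 63 counts in a library. The overlap with AC022506, also on its own strand, spans 2769 bases, and that gene had 1 count in each library. The part of these overlapping genes in the value of DDIT3 was not tested.

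CEBPB (ENSG00000172216, chromosome 20, 50190734 to 50192689) encodes a C/EBP factor that can pair with ATF4. Its level was 12.3, 15.8 and 15.4 FPKM in Control against 4.87, 7.76 and 6.22 FPKM in OX-LDL. The groups were separate, with the highest OX-LDL library 1.58-fold below the lowest Control library. OX-LDL over Control, the log2 fold change was -1.17 (SE 0.19, adjusted p = 0.0114). The antisense gene CEBPB-AS1, which shares 765 bases with it, had 23 to 66 counts in a library, where CEBPB had 703 to 2761.

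ATF3 (ENSG00000162772, chromosome 1, 212565334 to 212620772) encodes a stress-inducible factor that mostly represses transcription. In Control it was at 2.96, 4.75 and 4.57 FPKM, and in OX-LDL at 1.35, 0.688 and 0.779 FPKM. OX-LDL replicate 1 was the highest of its group and still 2.19-fold below the lowest Control library. For ATF3 the log2 fold change was -2.09 (SE 0.31, adjusted p = 0.0084).

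NUPR1 (ENSG00000176046, chromosome 16, 28532708 to 28539174) encodes a small chromatin-associated stress protein. It was measured at 7.13, 8.50 and 6.92 FPKM in Control and at 0.273, 0.348 and 0.429 FPKM in OX-LDL. No other gene of the 10 was so widely separated: the lowest Control library was 16.1-fold above the highest OX-LDL library. In counts, NUPR1 went from 3557, 4305 and 3199 to 115, 181 and 221, all above the detection limit. Its log2 fold change was -4.38 (SE 0.20, adjusted p = 0.00021). By mean FPKM it was at percentile 74.2 of the tested genes in Control and at percentile 21.8 in OX-LDL.

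ATF5 (ENSG00000169136, chromosome 19, 49928702 to 49933935) encodes a relative of ATF4 whose translation is also raised when eIF2 is phosphorylated, and which is known for the mitochondrial stress response. It was the lowest of the 10 in Control, at 2.35, 1.93 and 3.10 FPKM, and stood at 4.92, 4.54 and 6.15 FPKM in OX-LDL. Every OX-LDL library was above every Control library, with a gap of 1.46-fold between the nearest ones. The log2 fold change was 1.11 (SE 0.21, adjusted p = 0.0184), a 2.16-fold higher level. This call was the least stable of the 10: the adjusted p was 0.0595 without Control replicate 1, 0.0569 without Control replicate 2, 0.0540 without OX-LDL replicate 1 and 0.0632 without OX-LDL replicate 3, always with a log2 fold change of at least 0.96.

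On the other strand ATF5 overlaps NUP62 by 1062 bases and IL4I1 by 838 bases. NUP62, a nuclear pore gene, was at 9.88 ± 1.33 FPKM in Control and 12.7 ± 0.448 in OX-LDL (log2 fold change 0.40, adjusted p = 0.0489), and IL4I1 had a log2 fold change of 0.09 (adjusted p = 0.909). The part of these genes in the value of ATF5 was not tested.

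The effectors of the response include its feedback arm. TRIB3 (ENSG00000101255, chromosome 20, 362835 to 397559) encodes a pseudokinase that binds ATF4 and CHOP and dampens them. It was at 47.7, 68.8 and 69.8 FPKM in Control and at 9.18, 15.2 and 10.3 FPKM in OX-LDL. The 2 groups were far apart, and OX-LDL replicate 2 was the highest of its group, as it was for DDIT3. The fit gave TRIB3 a log2 fold change of -2.39 (SE 0.24, adjusted p = 0.0024).

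PPP1R15A (ENSG00000087074, chromosome 19, 48872421 to 48876058), also called GADD34, encodes the inducible subunit that directs protein phosphatase 1 to eIF2. It was at 25.9, 33.4 and 40.4 FPKM in Control and at 14.1, 13.7 and 13.1 FPKM in OX-LDL. The OX-LDL libraries were nearly equal, with a coefficient of variation of 3.94% against 21.7% in Control. This was a log2 fold change of -1.25 (SE 0.15, adjusted p = 0.0049).

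SESN2 (ENSG00000130766, chromosome 1, 28259518 to 28282491) encodes a leucine-binding protein that restrains mTORC1. It was at 20.2, 21.0 and 23.6 FPKM in Control and at 6.67, 7.74 and 5.58 FPKM in OX-LDL, with no overlap. SESN2 thus had a log2 fold change of -1.67 (SE 0.13, adjusted p = 0.0016).

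CHAC1 (ENSG00000128965, chromosome 15, 40952962 to 40956512) encodes an enzyme that breaks down glutathione. It was at 7.06, 5.66 and 4.68 FPKM in Control and at 0.956, 0.787 and 1.12 FPKM in OX-LDL. Even the lowest Control library was 4.18-fold above the highest OX-LDL library. The log2 fold change was -2.57 (SE 0.23, adjusted p = 0.0018), a 5.92-fold lower level.

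**Figure D2:**
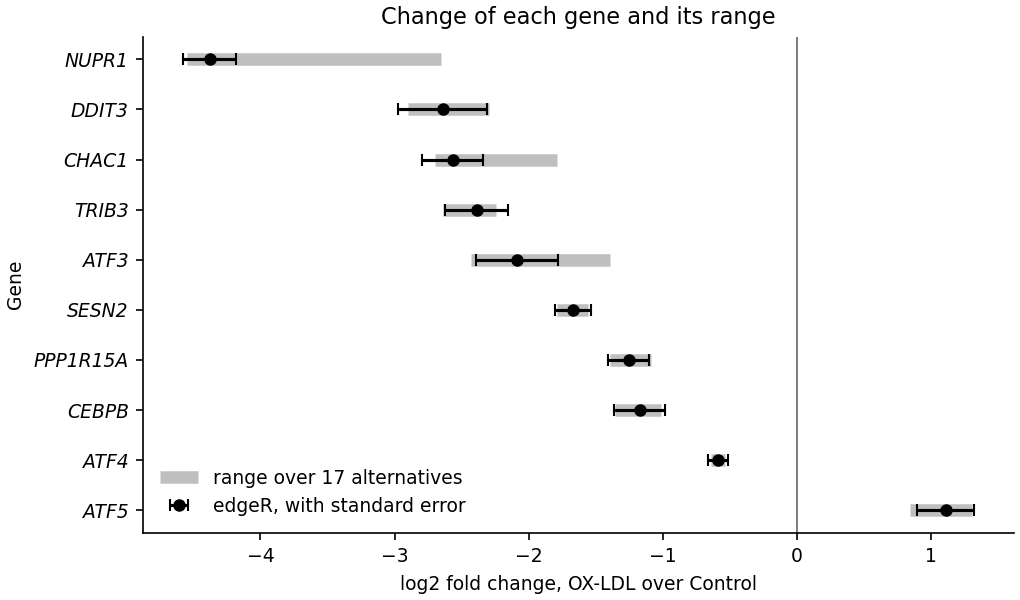
Log2 fold change of each gene, OX-LDL over Control (horizontal axis), with a point and standard error from edgeR's quasi-likelihood test and a grey bar from the lowest to the highest value under 17 alternative settings. The bars of 9 genes lie wholly below 0 and that of ATF5 lies wholly above it.

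The 9 lower genes were called under every one of the 17 alternative settings, with adjusted p-values of at most 0.0489 (CEBPB, without OX-LDL replicate 3). With a pseudocount of 1 FPKM in limma, which understates the change of low genes, the log2 fold changes were -2.65 for NUPR1, -1.79 for CHAC1 and -1.39 for ATF3. These 3 were the only ones of the 10 genes whose fold change, taken out of log2, moved by over 1.5 times.

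Because the genes did not fall by the same factor, their proportions differed between the groups. The 10 genes summed to 326, 429 and 396 FPKM in Control and to 151, 157 and 157 FPKM in OX-LDL. ATF4 made up 44.3%, 34.0% and 38.1% of that sum in Control and 64.0%, 56.4% and 65.5% in OX-LDL. In Control the order of mean levels was ATF4, DDIT3, TRIB3, PPP1R15A, SESN2, CEBPB, NUPR1, CHAC1, ATF3 and ATF5. The libraries of neighbouring genes overlapped for DDIT3 and TRIB3, for NUPR1 and CHAC1, for CHAC1 and ATF3, and for ATF3 and ATF5, so those neighbours were not separated. In OX-LDL the order was ATF4, PPP1R15A, DDIT3, TRIB3, SESN2, CEBPB, ATF5, CHAC1, ATF3 and NUPR1. Here PPP1R15A, DDIT3 and TRIB3 overlapped as neighbours, as did SESN2, CEBPB and ATF5, and CHAC1 with ATF3. NUPR1 lay below all others in each OX-LDL library.

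The spread between libraries also differed from gene to gene. In Control, the coefficient of variation was 2.27% for ATF4, 8.31% for SESN2 and 40.4% for DDIT3. Control replicate 1 was the lowest of its group in 7 of the 10 genes, and CHAC1 was the only gene that was highest there. Within OX-LDL, ATF3 had the widest spread, with a coefficient of variation of 38.3%, and no library was lowest in more than 4 genes.

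**Figure D3:**
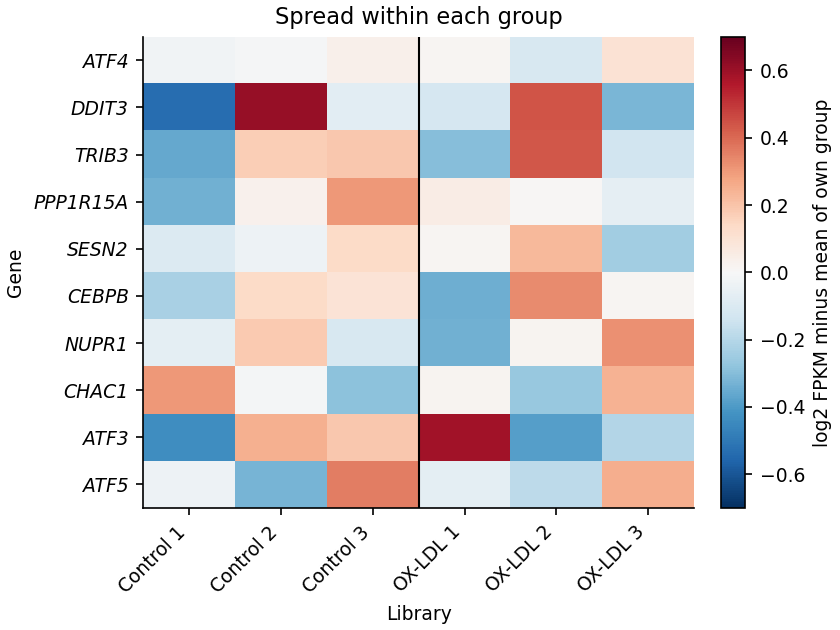
Difference of the log2 FPKM of each gene (rows) in each library (columns) from the mean of its own group, from blue (below) to red (above). DDIT3 in Control replicate 2 and ATF3 in OX-LDL replicate 1 are the deepest red, and the first column, Control replicate 1, is blue in most rows.

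Several of the 10 genes have close paralogs, genes of the same protein family. Of 12 paralogs, 9 reached the minimum level and were tested, and of these 3 were lower, none was higher and 6 were not called, with a median log2 fold change of -0.11. The shares called over all genes tested were 7.42% lower and 7.91% higher. TRIB1 and TRIB2, the relatives of TRIB3, had log2 fold changes of -0.32 (adjusted p = 0.169) and -0.05 (adjusted p = 0.907). CHAC2, the constitutive relative of CHAC1, was at 7.76, 8.65 and 7.24 FPKM in Control and 7.23, 7.84 and 6.33 FPKM in OX-LDL, with overlapping groups and a log2 fold change of -0.11 (adjusted p = 0.636). SESN1, a p53-responsive relative of SESN2, had a log2 fold change of 0.41 with an adjusted p of 0.0537, and it passed under DESeq2 (adjusted p = 0.0076), with upper-quartile factors (0.0458) and with a minimum of 1 FPKM (0.0335). SESN3, a further relative of SESN2, was below the minimum of 0.1 FPKM but was detected, with 30, 39 and 30 counts in Control and 96, 138 and 137 in OX-LDL. The OX-LDL libraries were all higher, and with no minimum level SESN3 was called higher (log2 fold change 1.94, SE 0.30, adjusted p = 0.0109), opposite in direction to SESN2. CEBPE had at most 4 counts in a library, and NUPR2 had 0 in every library.

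The 3 lower paralogs were CEBPG, JDP2 and PPP1R15B. CEBPG, a C/EBP partner of ATF4, was at 18.7, 20.8 and 19.9 FPKM in Control and 7.73, 7.53 and 6.58 FPKM in OX-LDL (log2 fold change -1.41, SE 0.09, adjusted p = 0.00060). JDP2, which resembles ATF3 and whose site was shown with those above, had a log2 fold change of -1.32 (SE 0.11, adjusted p = 0.0017). PPP1R15B, the constitutive counterpart of PPP1R15A, was at 39.3, 41.6 and 40.2 FPKM in Control and 29.9, 29.4 and 30.0 FPKM in OX-LDL, with a log2 fold change of -0.41 (SE 0.06, adjusted p = 0.0075). Mean PPP1R15B was thus above mean PPP1R15A in each group, but their Control libraries overlapped. In Control replicate 3, PPP1R15A (40.4 FPKM) was slightly above PPP1R15B (40.2 FPKM). CEBPA and CEBPD were not called, with log2 fold changes of 0.19 (adjusted p = 0.601) and 0.03 (adjusted p = 0.937), and the sign of CEBPD differed between settings.

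**Figure D4:**
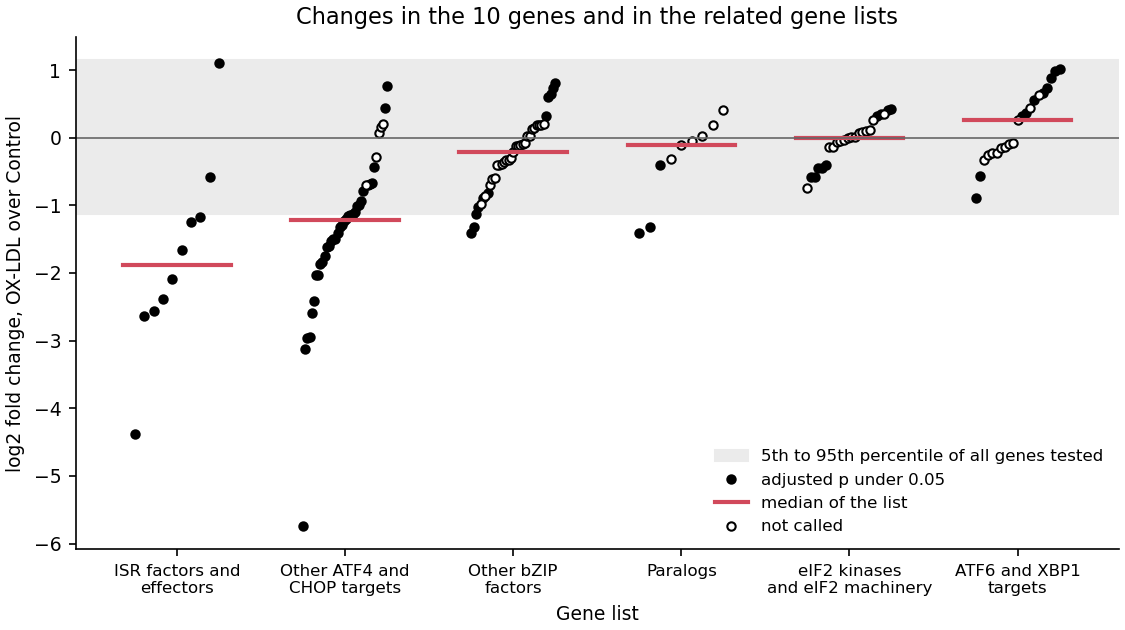
Log2 fold change of every tested gene, OX-LDL over Control (vertical axis), in the 10 genes and 5 related lists, filled where edgeR's quasi-likelihood test gave an adjusted p under 0.05 and open where it was not, with a red bar at the median and a grey band from the 5th to the 95th percentile of all genes tested. The 10 genes (median -1.88) and the other ATF4 and CHOP targets (median -1.22) lie mostly below 0, whereas the eIF2 list is centred at 0.

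Upstream of ATF4, a list of 24 genes was examined. It held the machinery that phosphorylates, exchanges and dephosphorylates eIF2, and other genes such as EIF2A, EIF2D, DELE1 and OMA1. All 24 genes were tested, 5 were lower, 4 were higher and 15 were not called, with a median log2 fold change of -0.00. Among all genes tested, 7.42% were called lower and 7.91% higher. Of the 4 eIF2 kinases, EIF2AK3, the sensor of the endoplasmic reticulum known as PERK, was at 10.2, 9.99 and 8.32 FPKM in Control and 9.30, 8.99 and 8.77 FPKM in OX-LDL. These ranges overlapped, with a log2 fold change of -0.04 (SE 0.10, adjusted p = 0.825).

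The other 3 kinases were higher in OX-LDL, by small amounts. EIF2AK4, the amino acid sensor GCN2, had a log2 fold change of 0.43 (SE 0.08, adjusted p = 0.0191), EIF2AK1, the haem-regulated kinase, of 0.34 (SE 0.08, adjusted p = 0.0333), and EIF2AK2, the double-stranded RNA sensor PKR, of 0.32 (SE 0.07, adjusted p = 0.0322). Each of these calls was lost on leaving out 1 library: without OX-LDL replicate 3, for example, the adjusted p was 0.0667 for EIF2AK4, 0.0863 for EIF2AK1 and 0.0807 for EIF2AK2. The same calls were lost without Control replicate 2 (0.0669, 0.0912 and 0.106), without Control replicate 3 (0.0560, 0.0818 and 0.0584) and without OX-LDL replicate 1 (0.0650, 0.0914 and 0.0968). EIF2AK2 was not called without Control replicate 1 (0.0795), nor EIF2AK1 without OX-LDL replicate 2 (0.0576).

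Of the other parts of this machinery, EIF2S2, the beta subunit of eIF2, was at 138, 137 and 144 FPKM in Control and 105, 94.8 and 102 FPKM in OX-LDL (log2 fold change -0.45, adjusted p = 0.0083). PPP1CB, a catalytic subunit of protein phosphatase 1, had a log2 fold change of -0.58 (adjusted p = 0.0126). EIF2B1, a subunit of the exchange factor eIF2B, was higher, with a log2 fold change of 0.41 (adjusted p = 0.0131, and 0.0594 without OX-LDL replicate 3).

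Downstream of ATF4 and CHOP, 40 of 41 further reported targets were tested, of which 33 were lower, 2 were higher and 5 were not called, with a median log2 fold change of -1.22. The whole set of genes tested had 7.42% called lower and 7.91% called higher. By role, 10 of 10 enzymes of amino acid and one-carbon metabolism were lower, as were 7 of 7 amino acid transporters and 6 of 6 genes of tRNA charging and export. The 17 genes of other roles split into 10 lower, 2 higher and 5 not called. GDF15, a secreted stress cytokine, was at 48.7, 55.1 and 48.9 FPKM in Control and 5.81, 6.97 and 6.30 FPKM in OX-LDL, with widely separate groups and a log2 fold change of -2.97 (SE 0.10, adjusted p = 0.00019). WARS1, a tryptophanyl-tRNA synthetase, and SHMT2, a mitochondrial serine hydroxymethyltransferase, each had a log2 fold change of -2.03 (SE 0.08), and PHGDH, which starts serine synthesis, one of -1.87 (SE 0.08), all with an adjusted p of 0.00021.

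The exceptions were named after their values had been seen. ERO1A, an oxidase of the endoplasmic reticulum, was at 12.9 ± 0.622 FPKM in Control and 21.4 ± 1.26 in OX-LDL (SD, n = 3), which gave a log2 fold change of 0.76 (adjusted p = 0.0032). CHPF, a chondroitin synthase, had a log2 fold change of 0.44 (adjusted p = 0.0354). VLDLR, BBC3, BCL2L11, KLHL24 and MAP1LC3B were not called. FGF21, a secreted hormone, was below the minimum level, with 0, 8 and 19 counts in the Control libraries and 0 in each OX-LDL library, and it was not called with no minimum level (adjusted p = 0.227).

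TGATGNAA was found in the windows of 10 of the 32 targets that had one. Of these, 9 were tested and all 9 were lower, and their median log2 fold change was -1.15. Of the 22 tested targets whose windows did not hold it, 15 were lower, 2 were higher and 5 were not called, and their median was -1.10. The medians were thus close, and the difference in counts was not tested.

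ATF4, DDIT3, CEBPB, ATF3 and ATF5 belong to the basic leucine zipper (bZIP) class of transcription factors. From a chosen list of 40 other bZIP factors, which does not cover the whole class, 37 were tested. Of these, 7 were lower, 5 were higher and 25 were not called, with a median log2 fold change of -0.22. For all genes tested the shares were 7.42% lower and 7.91% higher. The smallest p-values belonged to CEBPG, NFE2L2, NFIL3 and JDP2. NFE2L2, the NRF2 factor of the antioxidant response, was at 71.7, 74.2 and 68.5 FPKM in Control and 40.4, 38.7 and 39.6 FPKM in OX-LDL (log2 fold change -0.82, SE 0.06, adjusted p = 0.0012). NFIL3, a repressor of the circadian network, had a log2 fold change of -1.12 (SE 0.09, adjusted p = 0.0015).

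The unfolded protein response shares the kinase PERK with the integrated stress response but has 2 further branches, which act through ATF6 and XBP1. Of 21 targets of those branches, 2 were lower, 8 were higher and 11 were not called, with a median log2 fold change of 0.26. Across all genes tested, 7.42% were called lower and 7.91% higher. SEC24D, a coat protein of transport vesicles, was at 4.31, 4.09 and 3.99 FPKM in Control and 8.37, 7.76 and 8.46 FPKM in OX-LDL (log2 fold change 1.02, SE 0.08, adjusted p = 0.0012). The chaperone HSP90B1 was at 202, 155 and 190 FPKM in Control and 329, 376 and 356 FPKM in OX-LDL, with a log2 fold change of 0.98 (SE 0.12, adjusted p = 0.0048). CALR, a calcium-binding chaperone, and CRELD2 had log2 fold changes of 0.56 (adjusted p = 0.0055) and 0.88 (adjusted p = 0.0056).

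The direction was not shared by the whole list. HSPA5, the chaperone BiP, was at 219, 206 and 235 FPKM in Control and 200, 198 and 212 FPKM in OX-LDL, with overlapping groups and a log2 fold change of -0.08 (adjusted p = 0.521). XBP1 itself was lower, with a log2 fold change of -0.89 (SE 0.19, adjusted p = 0.0250), as was DNAJB9. HSPA5, XBP1 and DNAJB9 were named after their values had been seen.

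The ER stress response element, CCAAT and CCACG with 9 bases of any kind between them, is known to be used by ATF6. It was in none of the windows of the 9 matched genes of the integrated stress response and in those of 7 of 19 matched ATF6 and XBP1 targets, against 0.0916% of all symbols. So rare an element would seldom be met among 9 genes. The targets were listed as known targets of ATF6 and XBP1, so their share is not an independent test of the element. The other targets that held it were PDIA6 (higher), XBP1 (lower), and HSPA5 and CANX (not called), and their sites are not shown. The sites of HSP90B1, CALR and CRELD2 are shown because these targets were among the 4 named by smallest p-value, with the element or its complement in capitals.
HSP90B1, chr12:103930211-103930240: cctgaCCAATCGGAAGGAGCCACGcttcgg
HSP90B1, chr12:103930316-103930345: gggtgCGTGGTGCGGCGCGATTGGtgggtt
CALR, chr19:12938379-12938408: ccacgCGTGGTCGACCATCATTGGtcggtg
CRELD2, chr22:49918549-49918578: cctctCGTGGCGAACTCGGATTGGgccata

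Of the 7 targets with the element, 4 were higher, 1 was lower and 2 were not called, with a median log2 fold change of 0.44. Of the 12 without it, 2 were higher, 1 was lower and 9 were not called, with a median of -0.14, and the difference was not tested.

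Among the 3924 genes whose mean reached 10 FPKM, the pattern most like that of ATF4 over the 6 libraries, by Pearson correlation of log2 normalized counts, was that of USP47 (r = 0.995), a deubiquitinase gene. It was followed by UHRF1BP1, TIAL1 and SLC7A1 (each r = 0.993) and HNRNPH2 (r = 0.992). The 6 points fall into the 2 groups, so these values mainly order genes by a difference between groups and small spread within them. SLC7A1, a cationic amino acid transporter, is also in the list of ATF4 targets, and its log2 fold change was -1.12. TIAL1, an RNA-binding protein gene, was not called (log2 fold change -0.15, adjusted p = 0.156). HNRNPH2 overlaps a read-through gene on its strand, so its counts are uncertain.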

How the data were processed

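Poly(A) RNA of HK-2 cells was sequenced as read pairs by the authors. The submitters' processing notes name cutadapt 1.9, HISAT2 2.0.4, StringTie 1.3.4d, edgeR, DESeq2 and GRCh38. The authors deposited estimated counts per gene, not scaled for library size, which are whole numbers here, and FPKM values, in which 0 counts are listed at 0.0001 FPKM. The library kit marks strand, but the strand setting of the counting is not given in the sources used here. Coordinates are those of the deposited table, and 81.3% of 58552 identifiers have the same ones in GENCODE release 29.

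Groups followed the sample labels. The 10 genes, the related lists and the tests were chosen with earlier results of these data known, so they are not independent of those results. The 19510 genes whose mean reached 0.1 FPKM were tested on their counts with edgeR 4.0.16 in R 4.3.3 (TMM factors, glmQLFit, glmQLFTest, group as the only term), with Benjamini-Hochberg adjustment over all genes tested. The SE is the size of the log2 fold change over the square root of F. The fits were tested on simulated data. Within a group, chi-square between libraries was 14.3 to 24.8 per gene, so no library was a copy of another.

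Besides the 10 genes, named were at most 4 genes per list with the smallest p-values, the eIF2 kinases, PPP1R15B, the paralogs and the 5 genes most correlated with ATF4, with exceptions stated. In all, 8 genes stood in more than 1 list. The 17 alternatives were DESeq2 1.42.0, limma 3.58.1 on log2(FPKM + 0.1), log2(FPKM + 1) and log2(FPKM + 0.01), RLE factors, upper-quartile factors, library totals only, counts divided by 4, a minimum of 1 FPKM, no minimum, a replicate block and leaving out each of the 6 libraries. Promoter windows are from RefSeq, GRCh38.p14.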

Additional observations from a re-analysis of the deposited data

How the results depend on the processing

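Over the 17 alternatives, 166 values of the 10 genes kept their direction and their call and 4 lost the call, all of them for ATF5, so that 0 to 1 of the 10 genes was called higher when 1 library was left out. All genes called numbered 1161 to 2943 on leaving out 1 library (1796, 1161 and 1993 without Control replicates 1 to 3, 1262 and 1163 without OX-LDL replicates 1 and 3), those lower 537 to 1470 and those higher 619 to 1473. DESeq2 called 4430. The numbers in the labels pair no samples by source, and same-numbered libraries did not deviate together (correlations of -0.0347, -0.000891 and 0.0350); with the number as a replicate block, 1636 genes were called, 782 lower and 854 higher, and all of the 10 genes were still called. Leaving out 1 library gave 3 to 8 called genes in the eIF2 list (9 in full, and 5, 4, 4 and 3 without Control replicates 2 and 3 and OX-LDL replicates 1 and 3), 5 to 11 in the bZIP list (12 in full, and 6, 5 and 6 without Control replicate 2 and OX-LDL replicates 1 and 3) and 6 to 11 among the ATF6 and XBP1 targets (10 in full, and 6 without OX-LDL replicate 1). EIF2AK1 and EIF2AK2 were not called with the block (adjusted p = 0.0780 and 0.0740), and EIF2AK2 was not called with limma at any pseudocount (0.0504 to 0.0519) or with no minimum (0.0504). With limma at pseudocounts of 0.1, 1 and 0.01, the log2 fold change of CEBPD was -0.026, -0.018 and -0.027, against 0.03. When 1 library was left out it ranged from -0.17 to 0.17 for CEBPD (below 0 without Control replicate 1 or OX-LDL replicate 2), from -0.126 to 0.022 for EIF2AK3 (above 0 without Control replicate 1) and from -0.230 to 0.090 for TRIB2 (above 0 without OX-LDL replicate 3), none of them called. The cause of these differences was not tested, beyond the fewer libraries in the fits that leave one out. With no minimum level, SESN3 was called higher. FGF21, NUPR2 and CEBPE had few or no counts, so no difference between the groups could be judged for them, and the reason for the low counts was not tested. The 3 libraries per group limit the precision of every value.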
